A study of Mus musculus with 12 samples.

Results

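The cytosolic ribosomal proteins are the protein subunits of the ribosome that translates nuclear-encoded mRNAs, and their mRNAs are among the most abundant of any cell. They were chosen here by symbol: Rpl or Rps with a number and at most 1 letter, the stalk proteins Rplp0, Rplp1 and Rplp2, and Rpsa, with at least 30 reads summed over the 12 libraries. Of 80 matching symbols 75 met the minimum, 44 of the large and 31 of the small subunit, out of 23479 symbols in all, and all 75 passed the filter on low counts. The 5 left out were Rpl10l and Rpl26 with 0 reads, Rpl3l with 1, Rpl30 with 15 and Rpl39l with 18. The members with the fewest reads were Rpl34 with 101, Rps27 with 251 and Rps27l with 2520.

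RNA was sequenced from CD4+ T cells enriched from mouse spleen by removal of other cells, from C57BL/6J mice (WT) and from Sirt2-/- mice (KO), which lack the NAD-dependent deacetylase Sirt2. RNA of each genotype was extracted either from freshly isolated cells (0 h) or from cells stimulated through the T cell receptor for 24 h by anti-CD3 coated on the plate (5 µg/ml), with 3 libraries in each of the 4 groups. The samples hold no cells cultured for 24 h without anti-CD3, so stimulation and time in culture cannot be told apart in any comparison over time. No costimulating antibody is named in the labels, and the age of the mice is not given in the sources used here. Whether the 3 libraries of a group stem from different mice is not stated in the labels, and the p-values reflect only how far these libraries differ, possibly for technical reasons.

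Each ribosome holds 1 copy of nearly every one of these proteins, and only the acidic stalk proteins are present in several copies. The large subunit carries the peptidyl transferase centre and the stalk that recruits translation factors, while the small subunit reads the mRNA. Resting T cells hold little translational capacity and build more ribosomes once their receptor is engaged. The mRNAs of ribosomal proteins typically begin with a run of pyrimidines, the terminal oligopyrimidine tract, through which mTOR signalling controls their translation, so that the amount of an mRNA and its translation can move apart. Only mRNA was measured here.

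The start of each gene was read from RefSeq promoter sequences of the mouse build GRCm38.p6, which held 56 of the 75 genes. A run of at least 8 C or T letters within 50 bases of the start, on the gene's own strand, was present in 48 of the 56 (85.7%) and in 39.3% of all 27025 genes of the table. The 7 stretches shown belong to genes that the results turn on: 2 of the mRNAs with the largest decrease (Rps21, Rplp2), Rps28, which also fell, Rpl24 and Rps27l, which rose, the parent gene Rps27, and Rps6. Each runs from 12 bases before the annotated start to 18 from it, 5′ to 3′, with the longest run of C and T among these 30 bases in capitals.
Rps21: cgaggacccgCCCTCCTgcccaatagtgct
Rplp2: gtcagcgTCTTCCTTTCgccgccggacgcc
Rps28: accgcgtgcggTCTCgcgagagcgaaagtg
Rpl24: aagCTgttgctaggaaacagactgggcgct
Rps27l: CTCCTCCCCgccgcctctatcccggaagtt
Rps27: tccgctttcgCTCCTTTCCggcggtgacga
Rps6: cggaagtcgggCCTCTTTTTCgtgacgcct
They lie at chr2:180257367-180257396 (plus strand), chr7:141447639-141447668 (plus), chr17:33824545-33824574 (minus), chr16:55966263-55966292 (plus), chr9:66946074-66946103 (plus), chr3:90213631-90213660 (minus) and chr4:86857350-86857379 (minus), in the order shown. For Rps21 and Rps27l the table has 2 starts, and the one listed first is shown. Rps21, Rplp2, Rps27l, Rps27 and Rps6 had a run of at least 8 within 50 bases of the start, whereas the longest run was 6 bases in Rpl24 and 5 in Rps28. The 48 genes with such a run had a median log2 fold change over time of -0.33 in WT and -0.33 in KO, and the 8 without one, Rpl23, Rpl24, Rplp0, Rps13, Rps28, Rps3, Rps4x and Rpsa, had -0.23 and -0.28. Both kinds held genes that fell: 30 of 48 and 5 of 8 in WT, and 34 of 48 and 5 of 8 in KO, where 20.5% and 21.0% of all genes tested fell in WT and KO. A match is a description of the letters only.

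Library depth lay between 3.63 and 10.0 megareads counted in genes. Sirt2, the deleted gene, stood at 74.5 ± 9.41 CPM (SD, n = 3) in WT 0 h and 12.4 ± 3.59 in KO 0 h, and at 67.1 ± 7.91 and 13.2 ± 5.59 at 24 h. CPM are counts per megaread in genes, scaled with TMM factors. The T cell markers, 7 of 9 present in the files, summed at 0 h to 5557 to 6025 CPM in WT and 5806 to 6615 in KO, and at 24 h to 2736 to 2941 and 2607 to 3000, so they were lower at 24 h in every library. The B cell markers summed to 31.5 to 89.3 CPM, the myeloid ones to 7.39 to 21.1, and Hba-a1, Hba-a2, Hbb-bs, Hbb-bt and Ppbp had 0 reads in all 12 libraries. Cd8a and Cd8b1 summed to 17.3 to 18.5 CPM in WT 0 h and 30.7 to 35.7 in KO 0 h, and 4 NK markers, of which Klra8 had 0 reads throughout, to 46.1 to 51.0 and 63.4 to 77.1. Both sums were lower at 24 h in every library: the CD8 pair then had 9.78 ± 1.52 CPM (SD, n = 3) in WT and 12.4 ± 3.15 in KO, and the NK markers had 14.9 ± 5.84 and 16.2 ± 2.17. The part of these differences in the results was not tested. In bulk samples, fewer cells of a type and less RNA per cell cannot be told apart, and a CPM is a share of the library, not an amount per cell.

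The summed TMM-scaled level of the 75 mRNAs was lower after 24 h of anti-CD3. Their share of all gene reads overlapped between the times, while their share of gene reads without Rn45s did not. The 75 mRNAs made up 10.2% ± 0.416 of gene reads (SD, n = 3) in WT 0 h and 9.77% ± 0.743 in KO 0 h. After stimulation the share was 9.45% ± 0.430 in WT 24 h and 8.83% ± 0.574 in KO 24 h. The highest WT library at 24 h, at 9.94%, was above the lowest at 0 h, at 9.83%, and in KO the same libraries had 9.42% and 8.98%. Their summed level was 112587, 103790 and 116860 CPM in the 3 libraries of WT 0 h and 87309, 83959 and 96773 in those of WT 24 h. In KO it was 112256, 104751 and 97542 CPM at 0 h and 73721, 87640 and 79281 at 24 h. On this scale every library at 24 h was below every library at 0 h within each genotype, while WT and KO overlapped at both times. The ribosomal RNA precursor Rn45s, which the libraries' probes are designed to reduce, took 14.5%, 14.7%, 9.12% and 8.03% of gene reads in the 4 groups in the same order. With Rn45s left out, the members' share was 11.9%, 11.4%, 10.4% and 9.60%.

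The ratio of large to small subunit reads directly after isolation was 1.63 ± 0.0445 (SD, n = 3) in WT and 1.63 ± 0.0271 in KO. After stimulation it was 1.61 ± 0.0244 in WT and 1.61 ± 0.0126 in KO, and single libraries lay between 1.58 and 1.68. On these summed reads the groups overlapped, and no test was made of this score. Its value depends on the members counted: without the 5 most abundant members of each subunit it was 1.84 in both groups at 0 h and 1.87 in both at 24 h, and as a geometric mean over members 1.30 in both at 0 h and 1.25 in both at 24 h. As a geometric mean, the WT libraries at 0 h (1.28 to 1.33) and 24 h (1.23 to 1.27) did not overlap, and those of KO did (1.26 to 1.32 and 1.24 to 1.28). The direction over time therefore differed between these ways of counting.

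**Figure D1:**
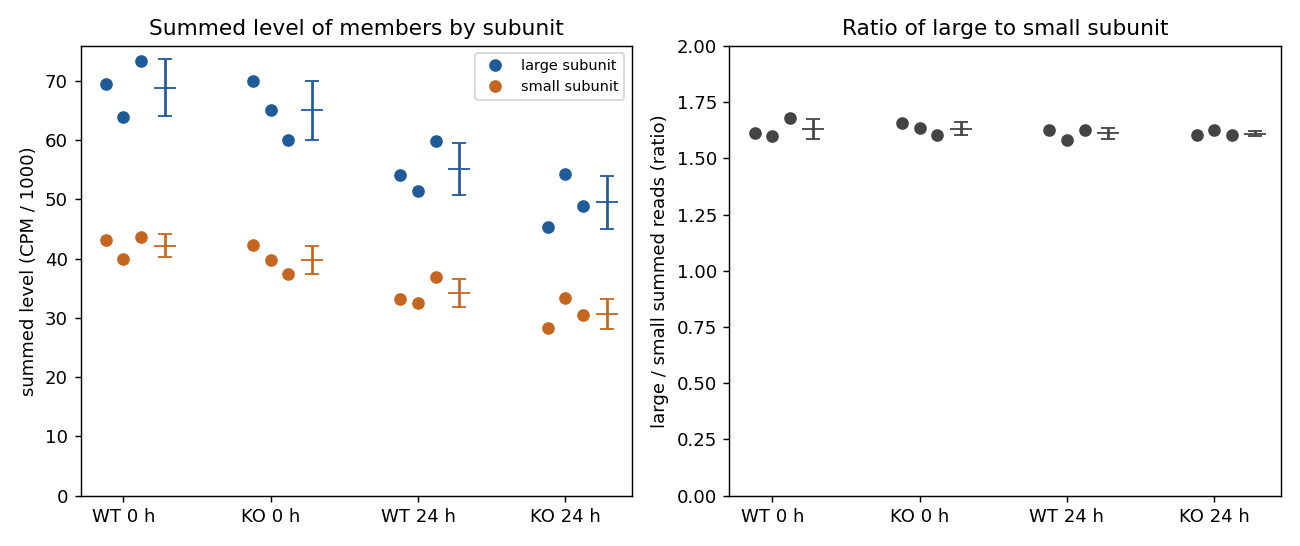
Left, summed TMM-scaled level of the 44 large and 31 small subunit genes, in CPM divided by 1000, in each library (points) with the group mean and SD (bar and whiskers, n = 3). Right, ratio of large to small subunit reads in each library, between 1.58 and 1.68 in all 12.

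After 24 h in WT, 45 of the 75 members were lower, 2 were higher and 28 did not pass (edgeR quasi-likelihood test, BH-adjusted p below 0.05). Among all 10981 genes tested, 20.5% were lower and 20.2% higher. The members' median log2 fold change was -0.30 against 0.00 for all genes, and 68 of 75 were below 0. By subunit, 29 of 44 large subunit members fell with a median of -0.32, and 16 of 31 small subunit members with a median of -0.24. No overlap between the 3 early and the 3 late libraries was seen for 45 members in the lower direction, and for 24.8% of all genes.

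In KO cells, 51 of 75 members were lower and 2 higher over the same time, where 21.0% of all genes were lower and 19.4% higher (edgeR quasi-likelihood test, BH-adjusted p below 0.05). The median was -0.33, and 32 of 44 large and 19 of 31 small subunit members fell, with medians of -0.33 and -0.30. The WT and KO time comparisons share no libraries. In both, 43 members fell and 2 rose, 20 passed in neither, and 72 of 75 had the same sign. Rps12 and Rps27a passed in WT alone, and 8 members, among them Rpl17, Rpl27, Rpl38, Rps19, Rps24 and Rps25, in KO alone. None of these passed the test of the interaction given below, which does not show that their changes were equal. Across the 75 genes, which are not independent replicates, the WT and KO fold changes had a Pearson r of 0.93, and across all genes 0.87.

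These counts depend on the scaling. With library totals in place of TMM factors, 19 members fell and 4 rose in WT and 26 fell and 4 rose in KO, with medians of -0.09 and -0.08. That scaling moved the median of all genes to 0.21 in WT and 0.24 in KO, and the lower share of all calls from 50.4% to 29.1% and from 52.0% to 27.5%. Relative to the median of all genes, the members' median was -0.30 in WT and -0.32 in KO under both scalings. A change of scaling shifts all genes of a comparison by about the same amount. This agreement was therefore fixed in advance and is no separate check of the decrease. Among the members whose own calls were compared under library totals, the calls lost were those of Rplp0 (edgeR, BH-adjusted p = 0.761 in WT and 0.502 in KO), Rpsa (0.875 and 0.733), Rpl22 in WT (0.131) and Rpl11 in KO (0.0611). Rps21 in KO, Rpl39 in WT and the genes of other lists described below were not compared in this way.

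**Figure D2:**
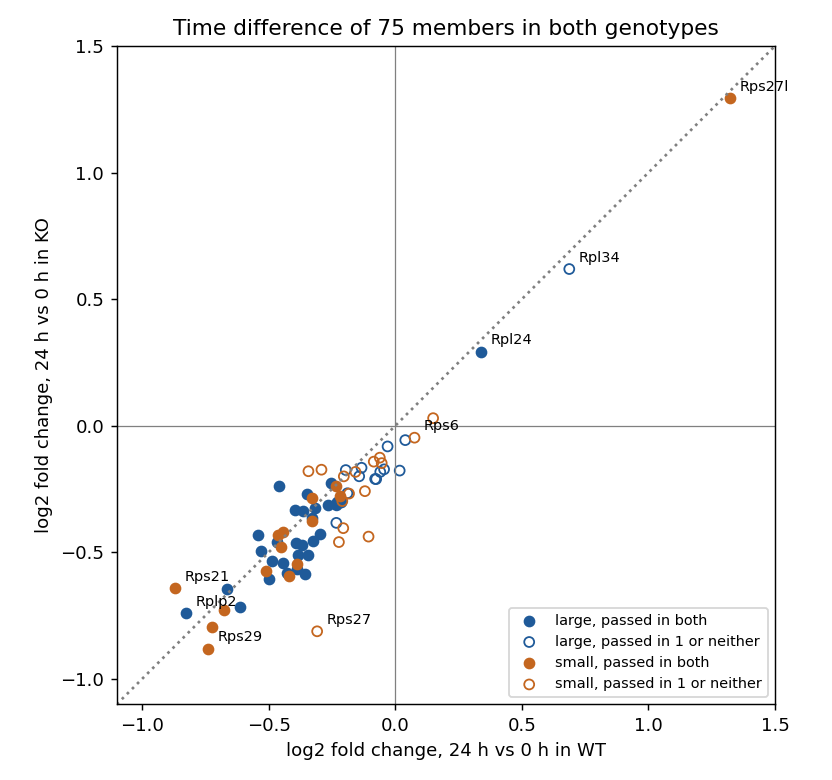
Log2 fold change of 24 h against 0 h for each of the 75 members in WT (x axis) and KO (y axis). Blue is the large and orange the small subunit, filled points passed in both genotypes, and the dotted line marks equal change; most points sit below 0 on both axes, with Rps27l and Rpl24 above.

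The mRNAs with the largest decrease came from both subunits. Rps21, a small subunit protein, had 620, 619 and 579 CPM in WT 0 h and 325, 306 and 364 in WT 24 h. In KO it had 562, 510 and 545 CPM at 0 h and 293, 353 and 392 at 24 h. All late libraries were below all early ones. The log2 fold change was -0.87 ± 0.0903 (SE) in WT and -0.64 ± 0.0906 in KO (edgeR, BH-adjusted p = 4.95e-11 and 1.11e-07).

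Rps29, a small zinc-binding protein of the small subunit, stood at 2009, 1685 and 1937 CPM in WT 0 h and 1131, 1064 and 1181 in WT 24 h. In KO its values were 1815, 1775 and 1599 CPM at 0 h and 965, 994 and 860 at 24 h. The early and late libraries did not overlap in either genotype. Its log2 fold change was -0.74 ± 0.0884 in WT and -0.88 ± 0.0889 in KO (edgeR, BH-adjusted p = 2.11e-09 and 2.36e-11). Rps16 and Rps28, both of the small subunit, fell by 0.72 and 0.68 on the log2 scale in WT, and their KO values were -0.80 and -0.73. Rpl39, a very small protein that lines the exit tunnel for the nascent chain, had -0.61 in WT and -0.71 in KO.

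The stalk proteins fell unequally. Rplp2 had 2712, 2353 and 2357 CPM in WT 0 h and 1477, 1211 and 1501 in WT 24 h. In KO it had 2647, 2008 and 1964 CPM at 0 h and 1098, 1402 and 1467 at 24 h. The late libraries were below the early ones in both genotypes, with a log2 fold change of -0.83 ± 0.113 in WT and -0.74 ± 0.113 in KO (edgeR, BH-adjusted p = 4.12e-07 and 2.90e-06). Rplp1, its partner in the stalk dimers, had -0.66 in WT and -0.64 in KO. Rplp0, which anchors these dimers to the ribosome, had -0.23 ± 0.0877 in WT and -0.31 ± 0.0879 in KO (edgeR, BH-adjusted p = 0.0284 and 0.00388). The WT call of Rplp0 was lost when WT 0 h library 1 or 3 or WT 24 h library 1 or 2 was left out, with adjusted p up to 0.173.

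Several members with known roles outside the ribosome differed in whether their change over time passed. Rpl5 and Rpl11 form a particle with the 5S ribosomal RNA that also binds the p53 regulator Mdm2. Rpl11 fell from 1497 ± 31.4 to 1028 ± 113 CPM in WT (SD, n = 3) and from 1343 ± 121 to 995 ± 132 in KO, log2 fold changes of -0.54 and -0.43. Rpl5 went from 2622 ± 274 to 2489 ± 149 CPM in WT and from 2354 ± 238 to 2034 ± 193 in KO, and its log2 fold changes of -0.08 and -0.21 did not pass (edgeR, BH-adjusted p = 0.553 and 0.0699). In KO, Rpl5 passed when KO 0 h library 3 or KO 24 h library 2 was left out. Rpl22, needed for the development of αβ T cells, had -0.37 in WT and -0.47 in KO. Rpsa, also described as a laminin receptor precursor, had -0.22 and -0.28, and its call was lost on leaving out single libraries, any of 8 in WT and 2 in KO, with adjusted p up to 0.193 and 0.0757. In the fit scaled to the median member, described below, Rpl11 lay below the family (-0.26) and Rpl5 above it (0.21) in WT. Neither passed there in KO (-0.09 and 0.13), and Rpl22 and Rpsa passed in neither genotype.

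Rps6, the small subunit protein that S6 kinases phosphorylate downstream of mTOR, had 1770, 1698 and 1892 CPM in WT 0 h and 1786, 1794 and 2070 in WT 24 h. In KO it had 1654, 1709 and 1605 CPM at 0 h and 1554, 1744 and 1508 at 24 h. Early and late libraries overlapped in both genotypes, and log2 fold changes of 0.08 and -0.05 did not pass (edgeR, BH-adjusted p = 0.514 and 0.706). With library totals only they were 0.28 and 0.19 and passed.

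Only Rpl24 and Rps27l passed in the higher direction, in both genotypes. Rpl24, a large subunit protein that joins late in assembly, had 485, 432 and 439 CPM in WT 0 h and 549, 554 and 612 in WT 24 h. In KO its values were 434, 436 and 454 CPM at 0 h and 494, 581 and 548 at 24 h. No late library was as low as an early one. The log2 fold change was 0.34 ± 0.0833 in WT and 0.29 ± 0.0837 in KO (edgeR, BH-adjusted p = 0.000846 and 0.00417). In the annotation, exons of Rpl24 overlap Gm28037 on the same strand, and 81.7% of its 50-base windows are shared with transcripts of other genes.

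Rps27l is the p53-responsive paralog of Rps27. It had 19.7, 15.6 and 24.3 CPM in WT 0 h and 50.4, 47.6 and 51.8 in WT 24 h. In KO the values were 22.2, 15.2 and 15.8 CPM at 0 h and 38.9, 51.8 and 41.3 at 24 h. Early and late libraries were far apart, with a log2 fold change of 1.32 ± 0.162 in WT and 1.29 ± 0.167 in KO (edgeR, BH-adjusted p = 3.60e-09 and 1.40e-08). Rps27 itself had 2.10 to 3.81 CPM as group means, from 8 to 39 reads in a library, and its log2 fold changes of -0.31 and -0.81 did not pass. Of the 50-base windows of Rps27, 98.6% are shared with transcripts of other genes, against 22.4% for Rps27l, so the deposited level of Rps27 cannot be compared with that of its paralog. The pairs Rpl39 with Rpl39l, Rpl3 with Rpl3l and Rpl10 with Rpl10l could not be compared, because the paralogs were under the read minimum.

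**Figure D3:**
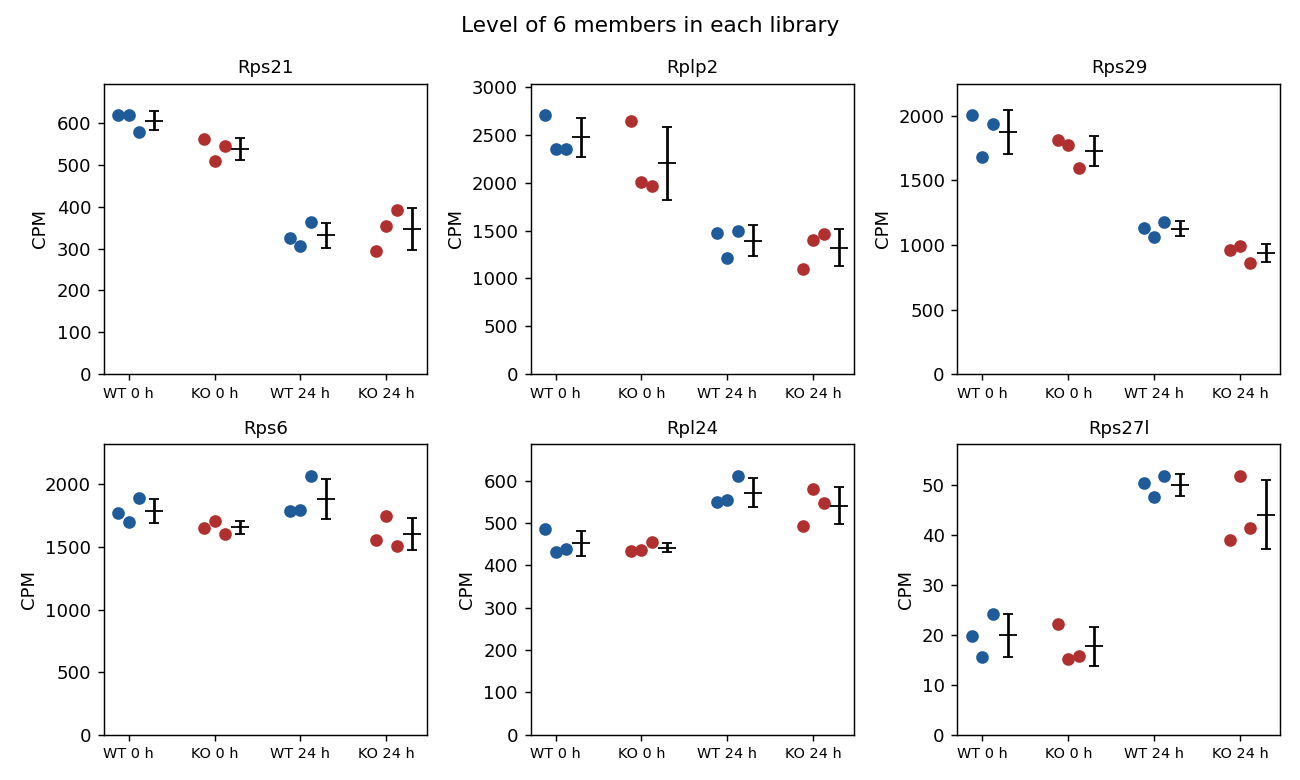
Level in CPM of 6 members in each of the 12 libraries (blue WT, red KO) with group mean and SD (bar and whiskers, n = 3). Rps21, Rplp2 and Rps29 are lower in every 24 h library of a genotype, Rps6 overlaps, and Rpl24 and Rps27l are higher.

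Reads shared between copies bear on the whole family. A median of 54.5% of a member's 50-base windows also occur in transcripts of other genes, from 0% to 98.6% (Rps27), and 44 members were above 50%. Reads aligned to several places, 25.7% to 30.9% of those listed in a library, stand in an entry that names no gene. Across the 75 members the level per kilobase of transcript in WT 0 h had a Spearman rho of 0.08 with the share of such windows. The log2 fold changes over time had a rho of 0.21 in WT and 0.18 in KO with that share. Those of KO against WT had -0.03 at 0 h and -0.20 at 24 h. The part of shared reads in the fold changes was not tested. Per kilobase, the highest group means in WT 0 h were those of Rpl21 (5056 ± 777 CPM per kilobase), Rps29 (4813 ± 435), Rps28 (4456 ± 549), Rplp1 (4398 ± 79.8) and Rpl19 (4103 ± 504). Neighbours in this order differed by less than the larger of their SDs.

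Relative to the family, members moved unequally. In a fit scaled to the median member, 14 members lay above the family over time in WT and 13 below, and in KO 8 above and 15 below (edgeR quasi-likelihood test, BH-adjusted p below 0.05). On this scale 35.4% of all genes lay above and 10.7% below in WT, and 38.7% and 9.39% in KO, since the family itself fell. The 8 above in both genotypes were Rpl14, Rpl24, Rpl36, Rps2, Rps23, Rps27l, Rps4x and Rps6, and the 9 below were Rpl23a, Rpl39, Rplp1, Rplp2, Rps15, Rps16, Rps21, Rps28 and Rps29. Rps4x, a small subunit protein encoded on the X chromosome, departed by 0.44 ± 0.0763 (log2, SE) in WT and 0.37 ± 0.0764 in KO, and Rps6 by 0.36 and 0.30. Rpl36 departed by 0.33 and 0.29 and Rpl14 by 0.25 and 0.26, and the KO calls of both were lost without 1 library each (KO 0 h library 3, adjusted p = 0.105, and KO 24 h library 3, adjusted p = 0.0502). Rpl32 departed by 0.31 in WT, and this call was lost without WT 0 h library 2 (adjusted p = 0.0797) or WT 24 h library 1 (adjusted p = 0.0505).

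Transcript length had a weak positive relation with the log2 fold change over time. The Spearman rho was 0.13 in WT and 0.16 in KO among 9906 other tested genes, and 0.11 and 0.22 among the 75 members. Among other tested genes the median log2 fold change was -0.39 in WT and -0.38 in KO for transcripts under 600 bases, -0.22 and -0.24 from 600 to under 1000, -0.05 and -0.09 from 1000 to under 2000, and 0.04 and 0.05 from 2000 bases. The members, whose transcripts have a median of 774 bases, had -0.33 and -0.46 in the shortest class, -0.29 and -0.33 from 600 to under 1000 and -0.29 and -0.28 from 1000 to under 2000. They were below the other genes in both of these classes in both genotypes, and above them in the shortest class in WT. The part of length in the result was not tested. Lengths were known for 90.9% of tested genes.

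**Figure D4:**
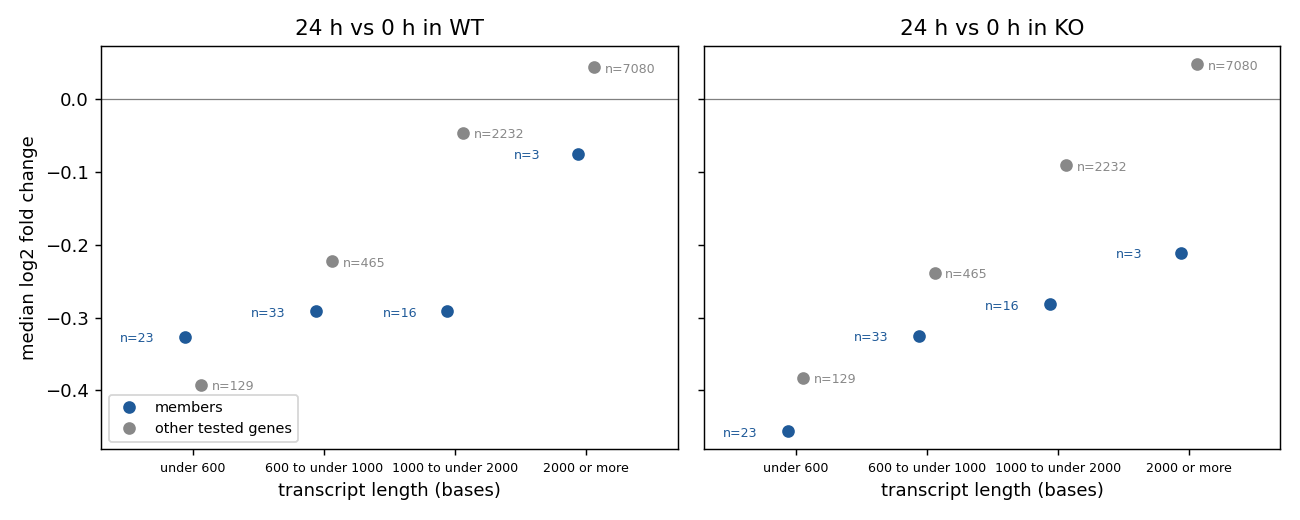
Median log2 fold change of 24 h against 0 h by transcript length class in WT (left) and KO (right), for members (blue) and other tested genes (grey), with the number of genes beside each point. The grey medians run from -0.39 and -0.38 in the shortest class to 0.04 and 0.05 in the longest, which holds 3 members.

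Lists of other genes that work with the family are read against all genes tested, of which 20.2% rose and 20.5% fell in WT and 19.4% and 21.0% in KO. Of 20 chaperones of ribosomal proteins and late maturation factors of the subunits, 10 rose and 0 fell in WT and the same numbers in KO, with medians of 0.43 and 0.34 (edgeR, BH-adjusted p below 0.05). Grwd1, the chaperone of Rpl3, rose from 13.6 ± 0.722 to 29.0 ± 5.02 CPM in WT (log2 fold change 1.10), Tsr1, a factor of small subunit maturation, had 0.98, Rrs1, which helps to insert the 5S particle, 0.84, and Lsg1, a GTPase of cytoplasmic large subunit maturation, 0.69. Of 13 genes that regulate the translation and stability of these mRNAs, 6 rose in WT and 8 in KO, and none fell in either. Eif4ebp1, an inhibitor of cap-dependent translation, had log2 fold changes of 2.87 in WT and 3.48 in KO, and Larp1, which binds terminal oligopyrimidine tracts, 1.16 and 1.23.

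Of 17 genes outside the ribosome known for such tracts, 6 rose and 3 fell in WT, and 3 rose and 4 fell in KO, which is near the shares of all genes except for the higher count in WT. Npm1 had 0.74 and Nap1l1 0.63 in WT, and the elongation factor Eef1a1 had -0.25 in WT and -0.37 in KO. Hnrnpa1 had -1.31 ± 0.360 in WT from 11.4 ± 6.23 CPM at 0 h, and -0.35 in KO, which did not pass. Ribosomal proteins and relatives that the symbols miss numbered 8, of which 2 rose and 4 fell in WT and 1 rose and 5 fell in KO. Rpl36al had log2 fold changes of -0.45 in WT and -0.44 in KO, and Rpl7l1 rose by 1.00 and 0.83. Of 76 mitochondrial ribosomal proteins, which form a separate ribosome, 8 rose and 4 fell in WT and 8 rose and 5 fell in KO, with medians of 0.05 and -0.00221, fewer in each direction than the shares of all genes.

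Between the genotypes no member passed at 0 h. The edgeR quasi-likelihood test called 0 of 75 at a BH-adjusted p below 0.05, where 0.346% of all genes passed, DESeq2 called 0, and 8 members were at an unadjusted p below 0.05, all lower in KO. At that unadjusted threshold stood 878 of all 10981 genes, and 475 of them, 4.33% of all, were lower in KO. The median log2 difference of KO against WT was -0.07, -0.06 in the large and -0.08 in the small subunit, against 0.00 for all genes, and 62 of 75 members were below 0, as were 49.0% of all genes. For 10 members every KO library was below every WT library, as for 6.36% of all genes. The median ran from -0.13 without WT 0 h library 2 or KO 0 h library 1 to -0.05 without KO 0 h library 3 and -0.03 without WT 0 h library 3.

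The members with the smallest p at 0 h were Rps12, Rps27a and Rpl13a. Rps12, of the small subunit, had 1752, 1633 and 1300 CPM in WT and 1320, 1141 and 1221 in KO, and the groups overlapped. Its log2 difference was -0.35 ± 0.0943 (edgeR, BH-adjusted p = 0.118). It passed with no filter on low counts (adjusted p = 0.0176) and without WT 0 h library 3 (0.00969). Rps27a, which encodes ubiquitin fused to a small subunit protein, had 315, 337 and 300 CPM in WT and 242, 261 and 281 in KO, without overlap (log2 difference -0.28, adjusted p = 0.209). Rpl13a, a large subunit protein, had a log2 difference of -0.28 as well (adjusted p = 0.286).

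At 24 h the test again called 0 members, where 0.273% of all genes passed. DESeq2 called 0, and 20 members were at an unadjusted p below 0.05, all lower in KO, where 775 of all genes were at such a p and 419 of them, 3.82% of all, were lower. The median log2 difference was -0.13, -0.12 in the large and -0.15 in the small subunit, against -0.01 for all genes, and 72 of 75 members were below 0, as were 52.2% of all genes. Complete separation with KO lower was seen for 10 members and 7.19% of all genes. Leaving out WT 24 h library 3 or KO 24 h library 1, the highest of WT and the lowest of KO in the members' summed level, moved the median to -0.06 and -0.08, and leaving out KO 24 h library 2, the highest of KO, to -0.20. With members that share libraries and scaling, the count below 0 is not a count of independent results.

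Rpl36a, Rpl5 and Rps29 had the smallest p at 24 h. Rpl36a, of the large subunit, had 669, 606 and 721 CPM in WT and 496, 625 and 507 in KO, with overlap (log2 difference -0.29 ± 0.0938, edgeR, BH-adjusted p = 0.314). Rpl5 had 2444, 2367 and 2655 CPM in WT and 1877, 2250 and 1974 in KO, without overlap (-0.29 ± 0.0943, adjusted p = 0.329). Rps29 had a log2 difference of -0.26 ± 0.0885 (adjusted p = 0.377), also without overlap. The genotype and time comparisons share libraries, so their values are set side by side only.

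**Figure D5:**
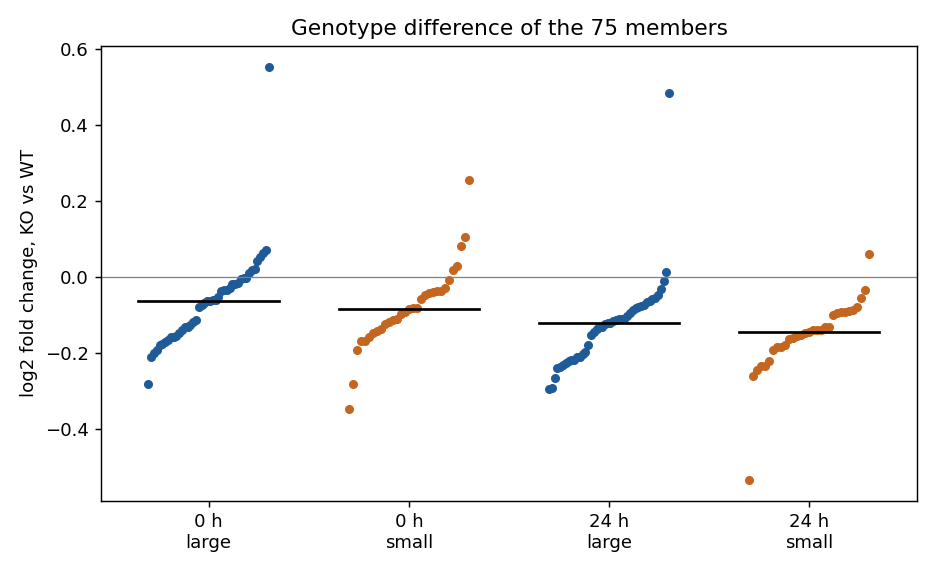
Log2 fold change of KO against WT for the 75 members at 0 h and 24 h, by subunit (blue large, orange small), ordered within each column, with the median as a line. The medians lie between -0.06 and -0.15; the highest point in both large subunit columns is Rpl34, with 3 to 19 reads in a library.

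The time difference itself was compared between the genotypes by the interaction of genotype and time. edgeR called 0 of 75 members after adjustment, 0 at an unadjusted p below 0.05 and, with DESeq2, 0, where 0.00911% of all genes passed after adjustment and 5.24% had an unadjusted p below 0.05. The median interaction of the members was -0.07 (log2), with 57 of 75 below 0, against -0.01 and 51.4% below 0 for all genes. It ran from -0.14 without KO 24 h library 2 to -0.00103 without WT 24 h library 3. Among the members with the smallest p were Rps21 (0.23 ± 0.127, adjusted p = 0.963) and Rpl13a (0.22 ± 0.131, 0.980).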

How the data were processed

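The authors deposited 1 table of read counts per gene symbol for each of the 12 libraries of total RNA. Per the submitters' processing notes, STAR 2.6.0c and DESeq were used and the build is hg19, a human build although the symbols are those of the mouse, which leaves their actual build unclear. Counter and annotation were not given in the sources used here, nor was strandedness. Entries that name no gene (22.8% to 35.4% of reads without a feature, 25.7% to 30.9% aligned to several places) were left out. The analysis used edgeR 4.0.16 in R 4.3.3 with TMM factors, filterByExpr (minimum count 10, total 15), which left 10981 genes, and a robust quasi-likelihood fit of the 4 groups, with Benjamini-Hochberg adjustment over all genes tested; DESeq2 1.42.0 was an alternative. Departures from the family used size factors from the median ratio over the 75 members. Transcript lengths and 50-base windows came from GENCODE mouse transcripts.

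The members, lists and tests were chosen with earlier results of these data known. Named were up to 6 members per direction with the largest changes that passed, or else the 3 with the smallest p, some members with known roles, and up to 4 genes of a list; some genes under this rule are not reported here. The pipeline was tested on simulated counts for 10739 genes. For 24 h against 0 h it recovered, at a simulated 2-fold change, 79 of 79 genes in WT and 78 of 79 in KO with at least 50 reads per library on average, and 7 of 20 in each with fewer. At a simulated 1.3-fold change it recovered 10 of 100 in WT and 9 of 100 in KO, and the estimate, called or not, had the wrong sign in 5 and 1 of the 100. Of the unchanged genes, 6 and 3 were called. The simulation gave every gene the same spread and changed far fewer genes than passed over time in the data. Its recoveries therefore do not tell how many members with a given change would be called. An initial requirement that 90% of all 2-fold genes be recovered was not met (86 and 85 of 99), and it was then set on the genes with at least 50 reads.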

Additional observations from a re-analysis of the deposited data

How the results depend on the processing

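Directions over time held for the members' median under every alternative run: DESeq2, other scalings, other filters, only the groups compared, the replicate block and leaving out each library. With library totals only, the members called numbered 23 in WT and 30 in KO, the medians were -0.0945 and -0.0850, and Rps6 in KO changed sign to 0.194 (BH-adjusted p = 0.0391). Leaving out 1 library gave 38 to 53 members called in WT and 40 to 59 in KO, and 18 to 29 and 17 to 25 departures from the family. Between genotypes at 0 h, 1 member (Rps12) was called with no filter on low counts, and 0 to 1 on leaving out a library; at 24 h and for the interaction 0 in each. The large to small ratio, for both genotypes at 0 h (WT, KO) and then at 24 h, was 1.84, 1.84, 1.87 and 1.87 without the 5 most abundant members per subunit, 1.30, 1.30, 1.25 and 1.25 as a geometric mean, and 1.47, 1.47, 1.48 and 1.47 without the stalk proteins. Deviations of libraries with the same number were hardly correlated over genes (18 correlations, -0.088 to 0.093, 0 above 0.1). In the members' summed level, however, the WT libraries had the same order by number at 0 h and 24 h, and those of KO did not. With the number as a replicate block, 46 members were called in WT, 54 in KO and 0 between genotypes or for the interaction, the departures stayed at 27 and 23, the medians were -0.30, -0.32, -0.08 at 0 h, -0.13 at 24 h and -0.07 for the interaction, and Rpsa in WT had an adjusted p of 0.0536. The causes were not tested. Few reads limit Rpl34 and Rps27.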
